A study of Arabidopsis thaliana with 9 samples.

Results

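Seedlings of Arabidopsis thaliana that carry the shl-2 mutation were compared with wild type seedlings of the same accession, Ler (Landsberg erecta), gene by gene across an Affymetrix array. The comparison took 6 of the 9 arrays of the study, which were the 3 samples labelled shl-2 and the 3 labelled wild type, and all 22746 probe sets that are not array controls. The other 3 arrays, of the ebs mutant, shared the estimate of the spread and served to ask whether a change in shl-2 differed from that in ebs. Plants of every group, controls included, were in the Ler background, whose erecta mutation affects a receptor kinase of organ growth. Growth lasted 18 days on solid medium, with 8 h of light alternating with 16 h of darkness, and RNA of whole plants was pooled into 3 independent biological samples per genotype. The source names write the allele as shl-2-2, while the titles and genotype fields write shl-2, and the labels do not describe the lesion.

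SHL (SHORT LIFE, listed here as SHL1) encodes a plant nuclear protein with a BAH domain and a PHD finger, modules that bind methylated tails of histone H3. Together with the related protein EBS it is known for holding back flowering. Cell walls, which many genes below act on, are networks of cellulose, xyloglucan and pectin that must be loosened and rebuilt while cells expand.

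Values are log2 signals, so a difference of 1 is a 2-fold change. Changes are shl-2 minus wild type with limma's moderated standard error (SE). Adjusted p-values are limma's, corrected by the Benjamini-Hochberg procedure over all 22746 probe sets, and a probe set below 0.05 was called. They rest on the spread between 3 samples per genotype. In RNA of whole seedlings, fewer cells of a type and less RNA per cell cannot be told apart. Array medians lay between 6.06 and 6.12, and arrays of the same genotype correlated at r = 0.992 to 0.997 across probe sets. The first principal component of the 6 arrays held 47.1% of the variance, and all shl-2 arrays (14.7 to 21.6) lay apart from the wild type arrays (-23.8 to -12.3) on it. Difference in signal between 3' and 5' control probe sets, a sign of RNA quality, was 1.5 to 1.79 in shl-2 and 1.43 to 1.54 in wild type for actin, -0.29 to -0.20 and -0.25 to -0.12 for GAPDH, and 0.72 to 0.76 and 0.55 to 0.82 for ubiquitin, so the genotypes overlapped in each. The part of RNA quality in the results was not tested. Of the tissue markers listed, 2 of 11 for green shoot, 3 of 15 for root, 1 of 12 for floral buds, 1 of 5 for pollen and 0 of 10 for seed had a named probe set, and none of these was called. The photosystem genes LHCB4.1 and PSAN lay between 13.5 and 14.0 on all 6 arrays, the root gene PYK10 between 12.1 and 12.5, and the floral bud gene AGL42 between 2.93 and 3.3.

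SHL1 itself read 7.88, 8.02 and 7.88 on the wild type arrays and 7.46, 6.91 and 6.52 on the shl-2 arrays. Signals of the mutant lay below every wild type sample but varied among themselves, with an SD of 0.47 against 0.08. The change was -0.96 (SE 0.19, n = 3, adjusted p = 0.0182), while in ebs it was -0.02. This call was lost without wild type sample 2 (adjusted p = 0.0772), wild type sample 3 (0.0586) or shl-2 sample 2 (0.0608), and in a fit of the 6 arrays alone (0.0502). Whether the probes lie in a part of the transcript that the mutation alters is not given in the sources used here.

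In shl-2, 1235 probe sets were called, or 5.43% of those tested. Of these, 555 were higher (2.44%) and 680 lower (2.99%) than in wild type. Changes upward were larger: the median was 0.68 among probe sets called higher and -0.54 among those called lower, against -0.03 over all probe sets. At least 2-fold changes were found in 200 called probe sets (0.879% of all tested), 127 higher and 73 lower, and at least 4-fold changes in 15 higher and 4 lower. Without wild type sample 2 the called probe sets numbered 677 (333 higher and 344 lower), and without wild type sample 3 they numbered 803 (422 lower). Without shl-2 sample 3 higher calls (468) outnumbered lower calls (441), so the excess of lower calls turned. Lower calls also dropped to 442 without shl-2 sample 1, and to 436 in a fit of the 6 arrays alone. Arrays of the genotypes did not overlap in 1234 of the 1235 called probe sets, compared with 20.5% of all probe sets. With 3 arrays per genotype a call nearly requires such a gap, so this adds no support of its own. Called probe sets were rare at low signal, with 0.323% of 6188 probe sets whose wild type mean was below 4, and most frequent between 8 and 10, with 10.4% of 3980. The plot of change against signal shows the upward tail.

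**Figure D1:**
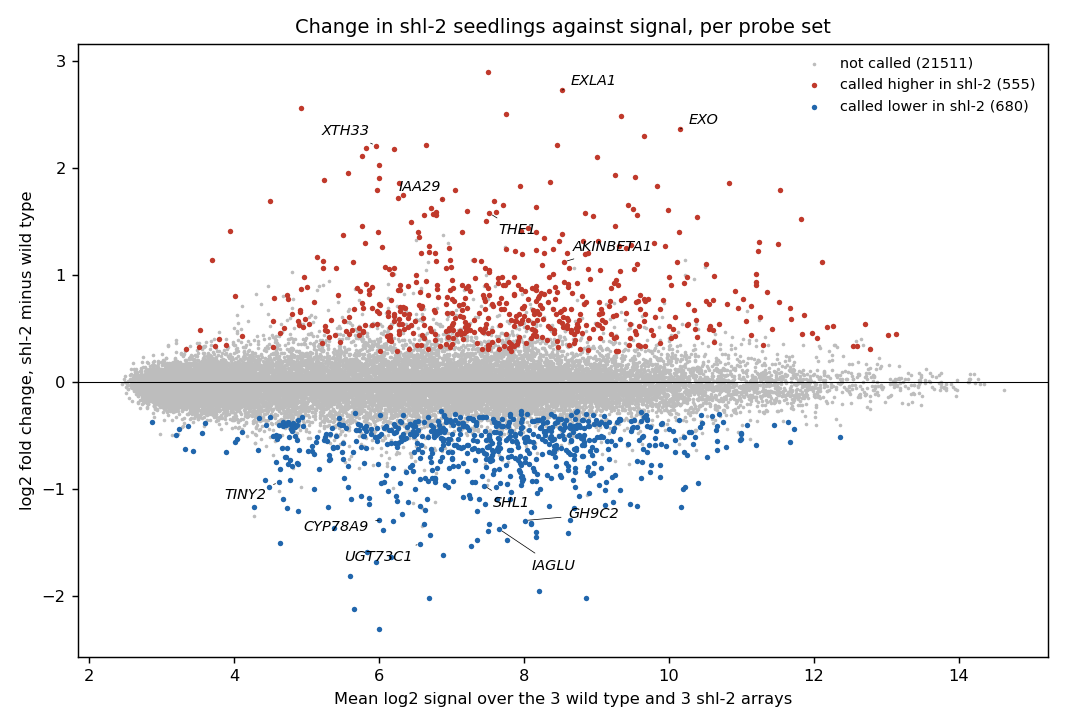
Each point is a probe set, placed by its mean log2 signal over the 6 arrays and its log2 fold change, shl-2 minus wild type; red and blue points were called higher (555) or lower (680), grey points were not called, and 12 genes described in the text carry their names. Points above 2 outnumber points below -2, with 15 against 4 called probe sets.

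Genes that act on the cell wall or sense its state moved in both directions. Expansin-like genes, genes for xyloglucan-remodelling enzymes, a wall sensor and 2 RALF peptides were raised, while 3 classical expansins and a cellulase-family gene were lowered. After the values were seen, 21 called genes were placed under the cell wall and its sensing, 15 higher and 6 lower. Over the 19 measured expansins, 3 rose and 3 fell (31.6% called), and the median change was 0.01 against -0.03 over all probe sets. Among named genes as a whole, 593 of 13356 were called (4.44%), of which 257 (1.92%) rose and 336 (2.52%) fell.

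EXLA1, an expansin-like protein, read 7.41, 6.99 and 7.07 in wild type and 9.68, 9.62 and 10.37 in shl-2. The lowest mutant array stood well above the highest wild type array. The rise was 2.73 (SE 0.21, 6.65-fold, adjusted p = 0.000302). EXLA2 read 5.30, 5.28 and 5.43 in wild type and 6.93, 7.01 and 7.66 in shl-2, a rise of 1.86 (SE 0.16, adjusted p = 0.000305). The third gene that rose, EXLB1, did so by 0.71. All 3 belong to the expansin-like branches, although EXLA3 of the same branch did not pass (0.06). Genes that fell came from the alpha and beta branches, whose proteins loosen walls without cutting their polymers: EXPA8 (-0.89), EXPB3 (-0.83) and EXPA9 (-0.41). Only 2 or 3 expansins were called without wild type sample 2 or 3 or shl-2 sample 1. The other 13 members, among them the root hair expansins EXPA7 (0.01) and EXPA18 (0.05), did not pass. EXLB1 lost its call without wild type sample 1 or 3 or shl-2 sample 1 or 3 (highest adjusted p = 0.064), and EXPA8 and EXPB3 without wild type sample 2 or 3 or shl-2 sample 1 (0.0615 and 0.0843). For EXPA9 the call was lost without wild type sample 1, 2 or 3, ebs sample 1 or shl-2 sample 1 or 2 (0.133), and with the replicate number as a block (0.0624).

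Xyloglucan endotransglucosylases cut and rejoin the xyloglucan chains that coat cellulose. Of the 10 measured, 4 rose (40%, against 1.92% of all named genes) and 0 fell, with a median change of 0.53. XTH33 read 4.86, 4.51 and 5.17 in wild type and 6.57, 6.74 and 7.87 in shl-2, with shl-2 sample 3 the highest, for a rise of 2.21 (SE 0.32, 4.64-fold, adjusted p = 0.00397). XTH16 rose by 0.98 (SE 0.14), EXGT-A3, also named XTH27, by 0.91 (SE 0.10) and XTH19 by 0.91 (SE 0.18). XTH18, with a change of 1.31, did not pass (adjusted p = 0.247), and XTH32 was the lowest at -0.44 (adjusted p = 0.0819). XTH19 lost its call without wild type sample 1 or 3 or shl-2 sample 1 or 3 (highest adjusted p = 0.078). Both CSLC04, a synthase of the xyloglucan backbone (0.83, SE 0.16), and CSLA03, of the mannan synthase family (1.35, SE 0.19), rose, while CSLC5, a close relative of CSLC04, fell by 0.53. CSLC04 lost its call without wild type sample 2 or 3 (0.0581), and CSLC5 without any 1 of the wild type arrays or shl-2 sample 1 or 3 (0.104).

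THE1 (THESEUS1) is a receptor kinase that monitors the wall and slows growth when cellulose synthesis is impaired. Its signals were 6.69, 6.74 and 6.75 in wild type and 8.28, 7.98 and 8.67 in shl-2. The wild type arrays were nearly equal and far below all mutant arrays, and the rise was 1.58 (SE 0.14, 3.00-fold, adjusted p = 0.000305). RALF peptides are secreted signals read by receptors of the THE1 family. Of 11 measured, 2 were called (18.2%, against 4.44% of all named genes). RALFL22 rose by 1.39 (SE 0.16) and RALFL33 by 0.75 (SE 0.11). The other 9 lay between -0.21 and 0.04, and the median was -0.02. EXO (EXORDIUM), a secreted protein that promotes cell expansion in leaves, read 9.11, 8.79 and 9.0 in wild type and 11.31, 11.02 and 11.68 in shl-2, a rise of 2.37 (SE 0.18, adjusted p = 0.000302). ATPMEPCRB, a pectin methylesterase, rose by 1.41 (SE 0.22), the only called gene of 4 measured in the list of pectin enzymes. Pectin enzymes known only by a locus code may be missing from this list, so it does not give a direction for pectin enzymes as a whole. SKU5, a wall and membrane glycoprotein of directional growth, rose by 0.50.

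GH9C2, a member of the cellulase family GH9, read 8.51, 8.78 and 8.67 in wild type and 7.32, 7.51 and 7.26 in shl-2. It fell by 1.29 (SE 0.12, adjusted p = 0.000433). Of 37 measured genes in the glycosyl hydrolase list it was the only one called lower, and BGLU16 (0.48) the only one called higher. The share called was 5.41%, against 4.44% of all named genes. Glycosyl hydrolases known only by a locus code may be missing from this list. TBL15, of a family that acetylates wall polysaccharides, fell by 0.69 as the only called member of 22 (2 with the replicate number as a block). Some of these calls depended on single arrays: SKU5 was lost without wild type sample 2 or 3 or ebs sample 1 (highest adjusted p = 0.0917), TBL15 without wild type sample 2 or shl-2 sample 1 (0.0581), and BGLU16 without wild type sample 2 or 3, ebs sample 1 or any shl-2 sample (0.139). The plot of expansins, XTH genes and RALF peptides sets these changes beside the members that were not called.

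**Figure D2:**
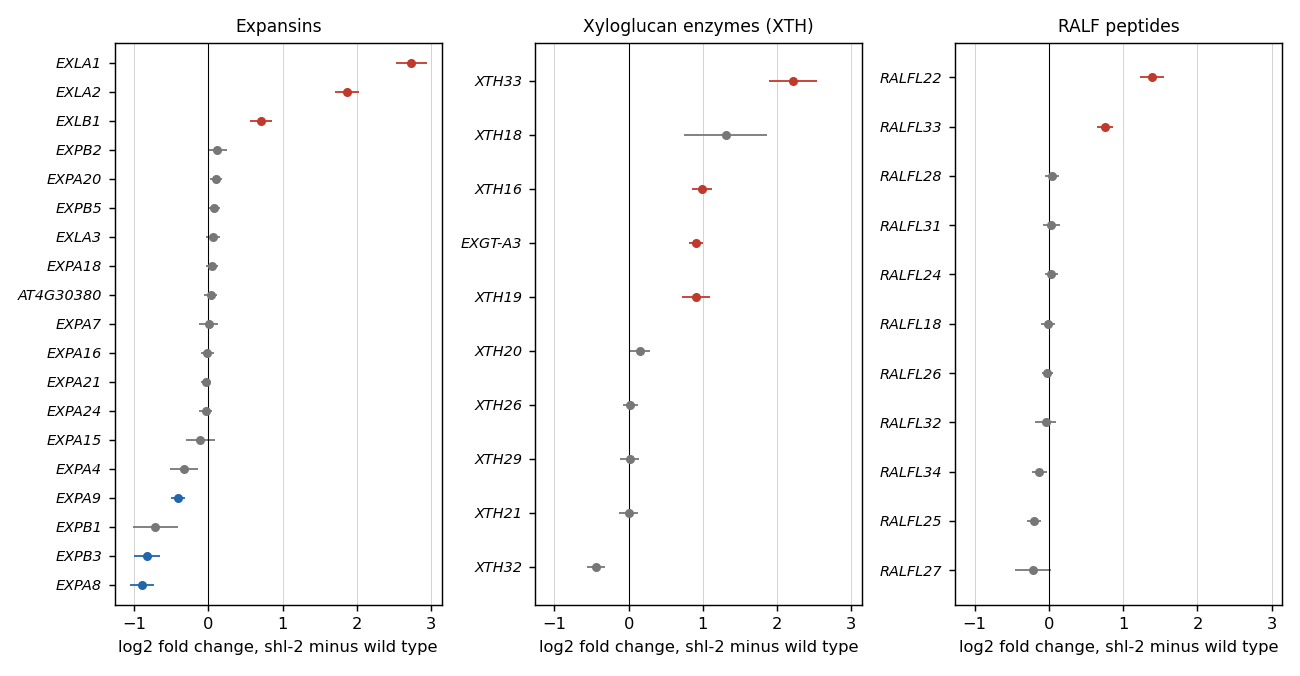
Log2 fold change (shl-2 minus wild type, with limma's SE as bars) of each measured expansin (19), xyloglucan endotransglucosylase (10) and RALF peptide gene (11); red was called higher, blue lower, grey neither. Expansin-like genes EXLA1 and EXLA2 stand at 2.73 and 1.86, apart from alpha and beta expansins, of which EXPA8 is the lowest at -0.89.

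Genes for UDP-glycosyltransferases, which attach sugars to hormones, flavonoids and other small molecules, were lowered where they passed the test. Of 52 measured, 10 fell (19.2%, against 2.52% of all named genes) and 0 rose. The median change was -0.13 against -0.03 over all probe sets. Members known only by a locus code may be missing from this list. It was chosen with earlier results of these data known, so the shared direction only describes these genes. UGT73C1 read 7.54, 7.53 and 6.90 in wild type and 5.95, 5.78 and 5.72 in shl-2, so that even the lowest wild type array lay above all mutant arrays. It fell by 1.51 (SE 0.18, adjusted p = 0.00153). IAGLU, which glucosylates the auxin indole-3-acetic acid, read 8.4, 8.46 and 8.16 in wild type and 6.97, 6.98 and 6.96 in shl-2, a fall of 1.37 (SE 0.11, adjusted p = 0.000305). UGT74D1, also active on auxins, fell by 0.50. UGT78D2 and UGT78D1, which add glucose and rhamnose to flavonols, fell by 0.90 (SE 0.14) and 0.92 (SE 0.18). UGT76E11 fell by 0.88, UGT76E12 by 0.74, UGT72B3 by 0.69 and UGT71C4 by 0.43. The highest member, UGT76C2, a cytokinin glucosyltransferase, was at 0.36 and did not pass (adjusted p = 0.139).

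The 7 measured genes of the flavonoid and anthocyanin list had a median change of -0.54. Among them the sugar-adding enzymes UGT78D1 and UGT78D2 were called, and DFR, which commits flavonoids to anthocyanins (-0.49, adjusted p = 0.126), AT5MAT (-0.54, adjusted p = 0.0901) and UF3GT (-0.60, adjusted p = 0.0622) did not pass. With the replicate number as a block, and without ebs sample 3, 4 of the 7 were called. Glucosinolates are sulphur-rich defence compounds of the cabbage family. Of 6 measured genes, UGT74B1, an enzyme of their core synthesis, fell by 0.64 (SE 0.11, adjusted p = 0.00947) and GTR1, their transporter, by 0.40 (SE 0.08, adjusted p = 0.0184), with a median of -0.29. Of 24 cytochrome P450 genes, CYP71B26 (-0.58) and CYP78A9, described below, fell and 0 rose (8.33% called, against 4.44% of all named genes).

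Several of these falls depended on single arrays, and without wild type sample 2 only 5 of the 52 UDP-glycosyltransferases were called. UGT78D1 lost its call without wild type sample 2 or 3 or shl-2 sample 1 (highest adjusted p = 0.061), UGT76E12 without wild type sample 1 or 2 or shl-2 sample 2 or 3 (0.0968), UGT72B3 without any wild type sample, ebs sample 1 or shl-2 sample 1 (0.0976), and UGT71C4 without wild type sample 2 or 3, ebs sample 1 or shl-2 sample 2 or 3 (0.104). UGT74D1 lost its call without any 1 of the wild type or shl-2 arrays (0.144), GTR1 without wild type sample 1 or 2 or shl-2 sample 3 (0.0687), and CYP71B26 without any wild type sample, ebs sample 1 or 3 or shl-2 sample 1 (0.0958). UGT73C1, IAGLU, UGT78D2, UGT76E11 and UGT74B1 kept their calls whichever array was left out.

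**Figure D3:**
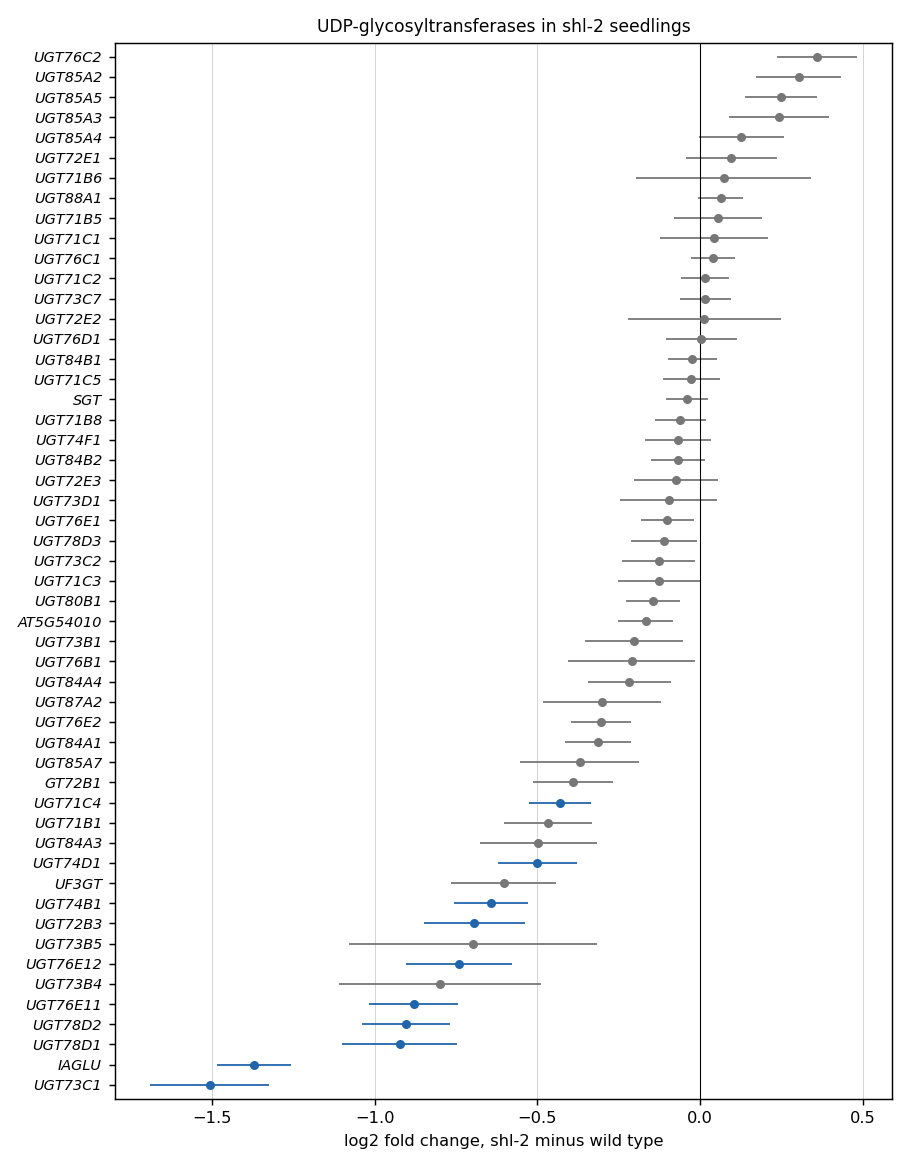
Log2 fold change (shl-2 minus wild type, with limma's SE as bars) of the 52 measured UDP-glycosyltransferase genes, sorted; blue genes were called lower and grey genes were not called. Values run from -1.51 for UGT73C1 to 0.36 for UGT76C2, and 10 genes, all below zero, were called.

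Of the 11 measured members of the auxin response list, 2 were called (18.2%, against 4.44% of all named genes), and both rose. The falls of the auxin glucosyltransferases IAGLU and UGT74D1 are given above, and UGT74D1 lost its call without any 1 of the wild type or shl-2 arrays. Of the UDP-glycosyltransferase list 42 members did not pass, among them UGT84B1 (-0.02, adjusted p = 0.913). The 2 falls therefore do not give a direction for auxin glucosyltransferases as a whole. IAA29, a repressor of the auxin response that is itself induced by auxin and shade, read 6.19, 5.71 and 6.14 in wild type and 7.21, 7.46 and 8.51 in shl-2, with shl-2 sample 3 the highest. It rose by 1.71 (SE 0.29, 3.28-fold, adjusted p = 0.00811). HAT2, an auxin-induced homeodomain factor, rose by 0.83 (SE 0.11, adjusted p = 0.00215), and YUC2, an enzyme of auxin synthesis, by 0.42. The other 9 measured members of the auxin response list did not pass and ranged from -0.20 to 0.64, and the median of the 11 was -0.05. Among 3 receptors of gibberellin, GID1C fell by 0.36 while GID1A (0.14) and GID1B (-0.24) did not pass. BRH1, a RING protein responsive to brassinosteroid, rose by 0.45. None of 6 cytokinin response regulators was called. Weak calls here were YUC2, lost without wild type sample 1 or 2, any ebs sample or shl-2 sample 1 or 2 (highest adjusted p = 0.145) and with the replicate number as a block (0.0646), GID1C, lost without any single array of the 9 (0.128), and BRH1, lost without wild type sample 2 or 3, ebs sample 1 or shl-2 sample 1 or 2 (0.102).

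After the values were seen, 3 called genes with a symbol were placed under light, 1 higher and 2 lower. Genes with only a locus code were not placed, so light signalling genes among them are not counted here. HYH, a bZIP factor that promotes light responses beside its relative HY5, read 6.91, 6.97 and 6.40 in wild type and 6.06, 5.84 and 5.55 in shl-2, and fell by 0.94 (SE 0.18, adjusted p = 0.0158). AFR, an F-box protein of phytochrome A signalling, fell by 0.76 (SE 0.09, adjusted p = 0.0016). COR27, a cold-induced gene linked to the clock and to light responses, rose by 1.3 (SE 0.17, adjusted p = 0.00223). HYH lost its call without wild type sample 1 or 2 or shl-2 sample 3 (highest adjusted p = 0.0724). GI, a clock and photoperiod gene, was at -0.11 (adjusted p = 0.562).

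Some genes known to be induced in darkness or when sugar is short were raised. All 7 measured members of this list had changes above zero, from 0.31 to 1.13, with a median of 0.71. Of these, 3 passed (42.9%), against 4.44% of all named genes. The list was chosen with earlier results of these data known, so the shared direction only describes these genes. AKINBETA1, a subunit of the energy-sensing kinase SnRK1, read 8.29, 7.57 and 8.09 in wild type and 9.19, 8.84 and 9.30 in shl-2, a rise of 1.13 (SE 0.18, adjusted p = 0.00568). BZIP53, a factor repressed by sucrose, rose by 0.82 (SE 0.12) and MCCA, of leucine breakdown, by 0.79 (SE 0.19). The partner subunit MCCB (0.42, adjusted p = 0.128), the leucine enzyme IVD (0.66, adjusted p = 0.113), the linker histone HIS1-3 (0.71, adjusted p = 0.0737) and SAG29 (0.31, adjusted p = 0.433) did not pass. ATG8E, an autophagy protein, rose by 0.79 (SE 0.10, adjusted p = 0.00208) as the only called gene of 8, and SDP1, the lipase that starts use of stored oil, rose by 0.56. Genes that fell were SWEET13, a sucrose exporter (-0.84), APL3, of starch synthesis (-0.53), ATSPS4F, of sucrose synthesis (-0.52), CCT2, of phosphatidylcholine synthesis (-0.41), and HOS3-1 (-0.40). APL3 lies among the 50 named genes nearest SHL1 on chromosome 4, of which 2 were called higher and 2 lower. That share was 8%, against 4.86% of the chromosome's named genes. The part of closeness to the mutated gene in its fall was not tested.

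Array dependence was marked in this group. MCCA lost its call without wild type sample 2 or 3, ebs sample 1 or shl-2 sample 1 or 3 (highest adjusted p = 0.12) and SDP1 without shl-2 sample 1 (0.0644). SWEET13 was lost without wild type sample 2 or 3, ebs sample 1 or any shl-2 sample (0.16), APL3 without any sample but ebs sample 2 (0.155), and ATSPS4F without wild type sample 1 or 2, ebs sample 1 or shl-2 sample 2 or 3 (0.122). CCT2 was lost without wild type sample 2 or 3 or shl-2 sample 1 or 3 (0.112), and HOS3-1 without any sample but ebs samples 2 and 3 (0.111).

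Called genes placed under development and transcription after their values were seen were 8 higher and 9 lower. CYP78A9, a P450 that enlarges organs when overproduced, read 6.65, 6.70 and 6.58 in wild type and 5.27, 5.55 and 5.25 in shl-2, a fall of 1.29 (SE 0.10, adjusted p = 0.000302). Both called regulators of trichomes fell: GIS, which promotes trichomes on shoots, by 1.14 (SE 0.12, adjusted p = 0.000613) and TRY, which inhibits them, by 1.00 (SE 0.20, adjusted p = 0.0174). MYR2, a MYB-related factor, fell by 0.98 and bHLH34 by 0.80. CR4, the epidermal receptor kinase also named ACR4, fell by 0.42, and SEU, a co-regulator of flower and ovule development, by 0.38. ULT1 (ULTRAPETALA1), a regulator of meristem size, read 6.41, 6.41 and 6.38 in wild type and 7.45, 7.27 and 7.91 in shl-2, a rise of 1.14 (SE 0.14, adjusted p = 0.00136).

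Of 20 bZIP factors measured 3 rose (15%, against 1.92% of all named genes) and 0 fell, with a median of 0.06. Those that rose were BZIP61 (1.24, SE 0.18), BZIP34 (1.07, SE 0.15) and BZIP53. AT1G22490, also named bHLH94, rose by 0.66, GT2, a trihelix factor, by 0.36, TRM26 by 0.60, and PHV, which sets the upper side of leaves, by 0.40. Small falls in AGO7, of small RNA pathways (-0.40), and a small rise in GSO1, a receptor kinase of embryo and root barriers (0.54), were lost with the replicate number as a block (adjusted p = 0.0628 and 0.0511). Without single arrays, calls were also lost for TRY (wild type 2 or 3, shl-2 1 or 2, highest adjusted p = 0.0719), SEU (wild type 2 or 3, shl-2 2 or 3, 0.0776), TRM26 (wild type 2 or 3, shl-2 3, 0.0663), GSO1 (any wild type, shl-2 1 or 3, 0.122), AGO7 (any of the 9, 0.115) and PHV (every array but wild type 1 and ebs 2, 0.124).

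None of the 7 listed promoters of flowering with a named probe set was called. They were GI, FY, FD, LD, AGL19, AGL42 and AGL24, and lay between -0.11 and 0.25. FT and SOC1 were not among them, so their levels are not described here. All 41 MADS-box factors with a named probe set lay between -0.28 and 0.32 without a call, and SOC1 and FLC were not among these. Such genes may lie among the probe sets without a gene name. Among 5 repressors of flowering only SHL1 passed, while SMZ (-0.49, adjusted p = 0.088) and SNZ (-0.43, adjusted p = 0.11), AP2-type repressors, did not. Of the 18 genes measured in the chromatin list, SHL1 was again the only one called, and the median was -0.05. The list does not hold every chromatin gene: UBP26, a histone H2B deubiquitinase outside it, was called lower and is given below. Without shl-2 sample 3, or with array weights, the called genes of the chromatin list numbered 2. In contrast, 0 were called without wild type sample 2 or 3 or shl-2 sample 2, and in the fit of the 6 arrays alone.

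Called genes placed under stress and protein turnover after their values were seen were 11 higher and 6 lower. WRKY22, a factor of defence and dark responses, read 6.44, 5.39 and 5.79 in wild type and 7.27, 6.99 and 7.45 in shl-2, a rise of 1.36 (SE 0.24, adjusted p = 0.00845). The related ubiquitin ligases PUB25 and PUB26 rose by 1.01 (SE 0.12) and 0.52 (SE 0.08). COR47, a dehydrin of cold and drought, rose by 0.59 (SE 0.09), although COR15A (-0.06) and COR15B (-0.21) did not pass. SCPL34, a carboxypeptidase-like protein, rose by 0.92 as the only called gene of 34 measured in the list of proteases. Proteases known only by a locus code may be missing from this list. DEWAX (AT5G61590), a repressor of wax synthesis, rose by 0.73. Called proteases of the list numbered 2 without shl-2 sample 3. They also numbered 2 with median centring, repeated quantile normalization, trended robust variances or array weights. DEWAX lost its call without wild type sample 2 or 3 or shl-2 sample 3 (highest adjusted p = 0.0958).

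Among AP2/ERF factors outside the lists, TINY2 fell by 0.93 (SE 0.09) from 4.92, 5.26 and 5.07 in wild type to 4.12, 4.18 and 4.15 in shl-2, and ORA47, a jasmonate-responsive factor, fell by 0.94 (SE 0.16), while tny (TINY) rose by 0.46. XERICO, a RING protein that raises abscisic acid, fell by 0.55, SAT32, named for salt tolerance, by 0.82, UBP26, a histone H2B deubiquitinase, by 0.43, and AOR by 0.40. Rises of APS3, an ATP sulfurylase (0.48), UBC16 (0.31), DER1 (0.32) and GLX2-1 (0.38) were small. With the replicate number as a block, UBC16, DER1 and GLX2-1 lost their calls (adjusted p = 0.0726, 0.0725 and 0.0618), and they did so too without at least 8 of the 9 arrays taken singly (highest 0.149). A second probe set of DER1 was at -0.11 and was not called. Calls were also lost without single arrays for tny (any wild type, ebs 1, any shl-2, 0.118), UBP26 (wild type 2, shl-2 1 or 2, 0.0733), AOR (wild type 2 or 3, shl-2 1 or 3, 0.0863) and APS3 (wild type 2 or 3, any shl-2, 0.0913). None of the 12 jasmonate and salicylate defence genes, 13 glutathione transferases, 9 calcium and calmodulin genes or 4 heat shock and chaperone genes was called, although CML38, a touch- and wound-induced calmodulin-like gene, was at 1.12 (adjusted p = 0.0935).

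Plastid genes that passed were lower. Of 69 measured genes of the plastid genome, 4 fell and 0 rose, and the median was -0.12 against -0.03 over all probe sets. The share called, 5.80%, was close to the 4.44% of all named genes. Called plastid genes numbered 7 with the replicate number as a block, and 2 in fits without wild type sample 2 or shl-2 sample 2 or 3 and in the fit of the 6 arrays alone. psbB, of the photosystem II core, read 10.05, 10.22 and 10.18 in wild type and 9.61, 9.21 and 9.12 in shl-2, a fall of 0.84 (SE 0.13, adjusted p = 0.00537), and psbD, of the same core, fell by 0.59 (SE 0.11, adjusted p = 0.00947). The ribosomal protein genes rpl20 and rps15 fell by 0.52 and 0.44, and cox1, of the mitochondrial respiratory chain, by 0.59. Of 5 nuclear photosynthesis genes 0 were called, and their changes lay between -0.06 and 0.17. Among nuclear genes of RNA and organelle expression, mTERF9 (AT5G55580) fell by 0.56, NRPA1 and NRPB7, subunits of RNA polymerases I and II, by 0.45 and 0.39, and the RNA helicase NIH by 0.40, while CIL, a CCT-motif protein, rose by 0.77. The fall of LSM3A by 0.31 was lost with the replicate number as a block (adjusted p = 0.0514). Calls were lost without single arrays for cox1 (wild type 1 or 2, shl-2 2, highest adjusted p = 0.0859), rpl20 (wild type 2 or 3, ebs 1, any shl-2, 0.127), rps15 (wild type 2 or 3, shl-2 2 or 3, 0.0735), NRPA1 (wild type 1 or 2, ebs 1, any shl-2, 0.142), NRPB7 (wild type 2 or 3, any shl-2, 0.078), NIH (wild type 2 or 3, ebs 3, any shl-2, 0.109) and LSM3A (every array but ebs 2, 0.106).

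**Figure D4:**
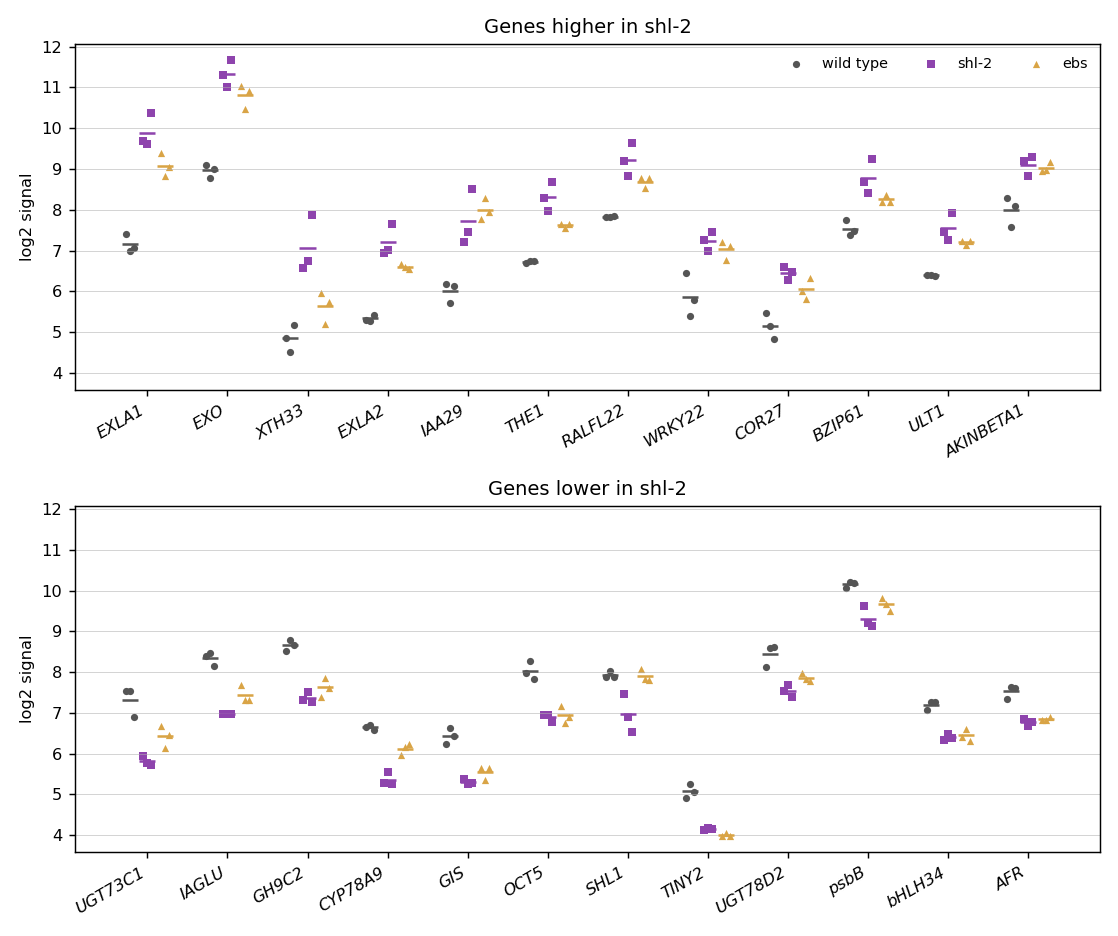
Log2 signal on each array (points) and group mean (lines) for 12 genes higher and 12 genes lower in shl-2, with wild type as grey circles, shl-2 as purple squares and ebs as yellow triangles. In all 24 genes the 3 shl-2 arrays lie clear of the 3 wild type arrays, as for EXLA1 (9.62 to 10.37 against 6.99 to 7.41) and IAGLU (6.96 to 6.98 against 8.16 to 8.46). All 24 were chosen among called genes, so this gap follows in part from the choice.

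Other annotated genes were few per function. OCT5, an organic cation transporter, fell by 1.14 (SE 0.14, adjusted p = 0.00133). Of 15 IQ-domain proteins 2 fell (13.3%, against 2.52% of all named genes), IQD22 by 0.65 and IQD23 by 0.46, and 0 rose. Of 15 tetraspanins 2 rose (13.3%, against 1.92% of all named genes), TET8 by 0.73 and TET10 by 0.59, and 0 fell. GLR3.5, a glutamate receptor-like channel, fell by 0.52 and CXE18, a carboxylesterase family member, rose by 0.59. IQD23 lost its call without wild type sample 2 (adjusted p = 0.0592), TET8 without wild type sample 2 or 3, ebs sample 1 or shl-2 sample 1 or 3 (highest 0.115) and TET10 without wild type sample 1 or 2, ebs sample 1 or 3 or shl-2 sample 3 (0.116). In all, 30 of the 42 lists with at least 3 measured members held a called gene, and 12 held none. Across lists, 31 different genes rose and 29 fell of 580 measured. The plot of called members per list gives the counts in each direction.

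**Figure D5:**
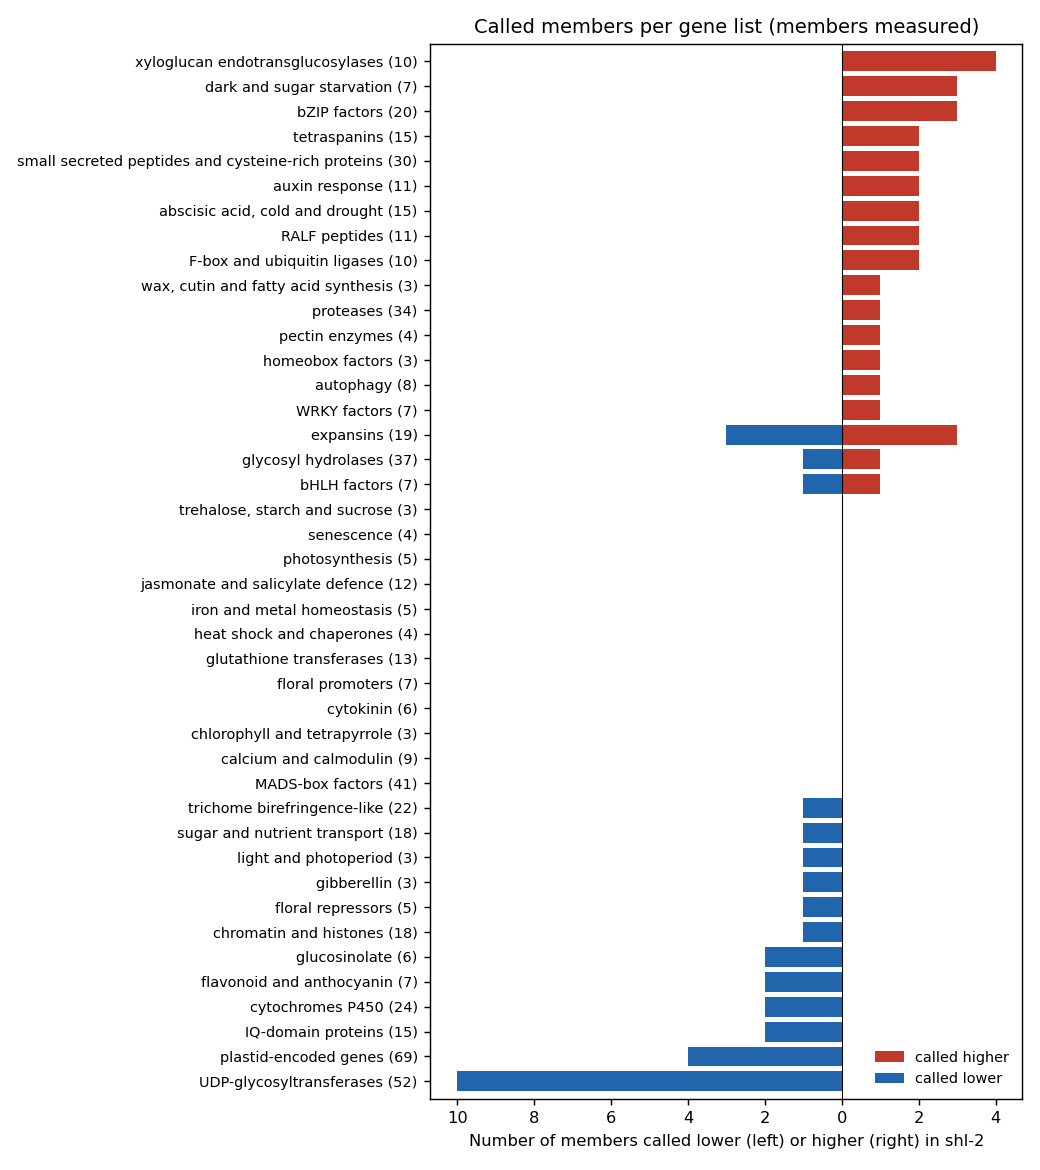
Bars count the members of each gene list called higher (right, red) or lower (left, blue) in shl-2, with the number of measured members in brackets after the list's name. UDP-glycosyltransferases hold the most lower calls (10 of 52) and xyloglucan endotransglucosylases the most higher calls (4 of 10); expansins, glycosyl hydrolases and bHLH factors hold both.

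Of the 593 called genes, 479 were not placed under a function, 203 higher and 276 lower, and all of these had a locus code as their symbol. Several of these changes were larger than those of most annotated genes. AT1G50040 read 6.35, 5.56 and 6.24 in wild type and 8.72, 8.62 and 9.52 in shl-2, a rise of 2.90 (SE 0.25, 7.48-fold, adjusted p = 0.000305). AT3G19680 rose by 2.49 (SE 0.18), AT2G27080 by 2.04 (SE 0.29), AT2G47440 by 1.92 (SE 0.11) and AT3G59350 by 1.88 (SE 0.15). AT2G47440 had the lowest adjusted p of all higher genes named here (0.000114), with 8.73, 8.37 and 8.61 in wild type and 10.40, 10.41 and 10.66 in shl-2. AT1G02660 rose by 1.80, AT4G27450 by 1.66 and AT4G01330 by 1.25. AT2G25510 rose by 2.57 on unequal arrays, with 7.06, 4.34 and 7.21 in shl-2 against 3.41 to 3.83 in wild type, and lost its call without any sample but ebs sample 2 and shl-2 sample 2 (highest adjusted p = 0.125). AT4G37240 (1.89) lost its call without wild type sample 2 or 3 (0.065), and AT2G16005 (1.69) without wild type sample 2 or shl-2 sample 1 (0.0599).

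Downward, AT2G15020 fell by the most among named genes, from 6.94, 7.23 and 7.28 in wild type to 5.19, 5.12 and 4.23 in shl-2, a change of -2.30 (SE 0.22, 4.94-fold, adjusted p = 0.000399). Next came AT1G48100 (-1.81, SE 0.25), AT2G19650 (-1.63, SE 0.12), AT1G20070 (-1.61, SE 0.17) and AT3G52740 (-1.53, SE 0.16), all of which fell. Further genes that fell were AT2G27420 (-1.5), AT5G42760 (-1.43), AT1G64500 (-1.39), AT3G56260 (-1.36), AT3G44450 (-1.31), AT1G12320 (-1.29) and AT4G24700 (-1.09). All 12 of these kept their calls when any single array was left out.

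Probe sets with no gene name here were called as well, 615 of 8730, or 7.04%, of which 289 were higher (3.31%) and 326 lower (3.73%). Of these, 68 were at least 2-fold higher and 39 at least 2-fold lower. The probe set 260856_at rose by 2.51 (SE 0.35), from 7.09, 6.22 and 6.16 in wild type to 9.05, 8.67 and 9.28 in shl-2. Next were 263421_at (2.31), 245325_at (2.22), 245757_at (2.22) and 266901_at (2.19). The last lost its call without wild type sample 3, ebs sample 1 or 3 or any shl-2 sample (highest adjusted p = 0.112). On the lower side, 254066_at fell by 2.12 (SE 0.24), from 6.26, 7.18 and 6.69 to 4.26, 4.94 and 4.58, followed by 263739_at (-2.01), 266720_s_at (-2.01), 251060_at (-1.95) and 257262_at (-1.68). These 5 kept their calls in every fit that left out an array.

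Transcripts annotated as pseudogenes were called less often than protein-coding genes, 11 of 923 (1.19%) against 578 of 12293 (4.70%), a description without a test. AT1G42705 was the exception in size. It read 5.15, 5.56 and 5.48 in wild type and 7.18, 7.39 and 6.79 in shl-2, a rise of 1.72 (SE 0.17, adjusted p = 0.000548), on a probe set whose suffix s_at marks possible detection of similar transcripts. Its ebs arrays gave a change of -0.34.

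The fit also tested shl-2 against ebs directly, and 175 probe sets (0.769%) were called there. Among the 1235 probe sets changed against wild type, 87 also differed between the mutants, 44 of those higher in shl-2 and 43 of those lower. Of the 44, 40 were above ebs, and of the 43, 42 were below ebs. This count was 131 with the replicate number as a block, and between 26 and 56 without wild type sample 3, any 1 ebs sample or shl-2 sample 1. Both comparisons use the same shl-2 arrays, so these directions follow in part from the choice. No gene placed under the cell wall differed between the mutants by this test, and the lowest adjusted p there was 0.0549, for XTH16 with a difference of 0.69. Annotated genes that did differ were CYP78A9, with -1.29 in shl-2 and -0.52 in ebs, ORA47 (-0.94 and 0.26), BRH1 (0.45 and -0.08), CIL (0.77 and 0.04) and 2A6, of the oxoglutarate-dependent dioxygenase family (0.73 and 0.14). A second probe set of 2A6 was at 0.08 and was not called.

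Some genes with locus codes only differed between the mutants as well. AT3G27473 read 3.2, 3.21 and 3.27 in wild type and 4.22, 5.11 and 4.61 in shl-2, a rise of 1.42 (SE 0.18), against -0.02 in ebs (adjusted p of the difference = 0.00521). AT3G30200 rose by 0.81 in shl-2 and was at -0.18 in ebs (adjusted p of the difference = 0.000899). AT2G39980 fell by 1.07 in shl-2 and was at 0.19 in ebs (0.00455), and AT5G54130 fell by 1.00 against -0.20 in ebs (0.0031), with both of its probe sets called lower in shl-2. AT3G47540 went opposite ways, falling by 0.42 in shl-2 and rising by 0.40 in ebs (0.000784). AT1G01390 did so too, with -0.44 in shl-2 and 0.67 in ebs (0.000784), but its call against wild type was lost without wild type sample 2 or 3, ebs sample 1 or any shl-2 sample (highest adjusted p = 0.0915). These genes were chosen for naming after their values were seen.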

How the data were processed

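Transcripts of whole seedlings were measured on 9 Affymetrix ATH1 arrays, 3 per genotype, grouped by the genotype in GEO's labels. What the authors deposited is 1 log2 value per probe set and array. The submitters' processing notes name RMA and affy. Per the labels' protocols, 500 ng of RNA was labelled from the 3' end. RMA already normalizes between arrays, and its background step could not be varied here. Scanner files, genome build and promoter motifs were not analysed here. Of 22810 probe sets, 64 controls were left out, with no filter on signal. Names came from the platform annotation, updated to RefSeq names of TAIR10.1: 13513 probe sets named 1 gene (13436 matched, 13356 genes), 503 several and 8730 none; the probe set of highest mean stood for a gene.

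Genotype means over the 9 arrays were estimated with limma 3.58.1 in R 4.3.3 (lmFit, contrasts.fit, eBayes), two-sided, after tests on simulated data. No array pair was identical (0 pairs). Same-numbered wild type and shl-2 samples deviated together (r = 0.405, 0.212 and 0.171), while pairs of different number gave r from -0.330 to 0.146. The labels name no batch and do not say whether the numbers pair the samples. The main fit, which gave the SE and calls unless stated otherwise, did not pair them. A fit with the replicate number as a block was an alternative. Others were the 6 arrays alone, median centring, repeated quantile normalization, the dimmest 30% left out, trended robust variances, array weights, 1 probe set per gene, and each array left out.

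Members and lists were chosen with earlier results of these data known. The rule named SHL, the 16 highest and 16 lowest genes among calls without overlap, the 6 of lowest p each way, the 5 highest and 5 lowest unnamed probe sets, and up to 5 called members per list. Annotated called genes outside it, their grouping by function, pseudogenes and genes that differ from ebs were chosen after their values were seen. Of 61 lists, 42 had at least 3 measured members, 10 had 1 or 2 and 9 had none.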

Additional observations from a re-analysis of the deposited data

Results flagged for a closer look

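For 12 genes or probe sets named by the rule or by function, the change in shl-2 differed from that in ebs by the fit's direct test of the mutants (shl-2 minus ebs, limma, adjusted over all probe sets). Lower in shl-2 than in ebs were AT3G22540 (-1.33), ORA47 (-1.20), 263739_at (-0.93), CYP78A9 (-0.77), AT2G19650 (-0.77), AT1G64500 (-0.74) and AT5G42760 (-0.71). AT3G22540 fell by 1.17 against wild type but lost that call without wild type array 2 or 3 or shl-2 array 1 (highest adjusted p = 0.0636). Higher in shl-2 than in ebs were AT1G42705 (2.06), CIL (0.73), AT2G47440 (0.61), 2A6 (0.60) and BRH1 (0.53). The rise of BRH1 against wild type was lost without wild type array 2 or 3, ebs array 1 or shl-2 array 1 or 2 (highest adjusted p = 0.102). Groups of 3 arrays are too small for a test of single arrays that stand apart.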

How the results depend on the processing

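The number of arrays limits all of these values, and probe sets at low signal were rarely called. Leaving out 1 array at a time gave 677 to 1229 called probe sets, 333 to 567 higher and 344 to 662 lower, 100 to 156 at least 2-fold higher and 59 to 94 at least 2-fold lower, and 37 to 63 genes of the lists. Of the 1235 called probe sets, 571 kept their call in all 9 of these fits, as did 52 of the 87 higher and 51 of the 98 lower genes and probe sets named by the rule or by function. SHL1 ranged from -1.21 to -0.74 over these fits, lost its call at -0.92 without wild type array 2, -0.99 without wild type array 3 and -0.94 without shl-2 array 2, and lost it at -0.96 in the fit of the 6 arrays alone, where 837 probe sets were called, 436 of them lower, and 48 of the 185 named genes and probe sets lost their call, 24 higher and 24 lower. With the replicate number as a block, 1402 probe sets were called, 662 higher and 740 lower, 13 of 185 named genes lost their call, and 131 in place of 87 also differed from ebs. Called members became 4 for flavonoids, 7 for plastid genes and 2 for trichome birefringence-like genes under the block, and it changed no other count by over 1.5 times and not the call of SHL1. Array weights gave 157 such probe sets and leaving out single arrays 26 to 91. With 1 probe set per gene fewer were tested, and 568 were called, 246 higher and 322 lower, 55 and 33 of them at least 2-fold, with 37 that also differed from ebs. Higher calls were 43.3% to 51.5% of all calls over the settings, against 44.9%. Without shl-2 array 3 the balance turned, with 468 higher and 441 lower calls. The log2 fold change of no named gene changed sign in any setting. The causes of these shifts were not tested.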
